A study of Mus musculus with 12 samples.

Results

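The hearts of mice given alginate oligosaccharides (AOS) after busulfan were compared with the hearts of mice given busulfan alone, across all genes of a bulk RNA-seq table. The comparison used 6 of the 12 libraries of the study, 3 of busulfan plus AOS and 3 of busulfan, chosen by their treatment labels alone. Busulfan plus AOS mice received busulfan once at 40 mg/kg and then AOS at 10 mg/kg for 5 weeks. Busulfan mice received the same single dose and no AOS. The other groups, with 3 libraries each, received AOS without busulfan or no treatment, and they entered the estimate of the spread and a test of whether the response to AOS depended on busulfan. The strain is labelled IRC mouse and no genetic alteration is named. The tissue label reads Cells, whereas the extraction text names heart tissue. Age, the number of animals behind a library and any pooling are not given in the labels, and each p-value therefore reflects only how far these libraries spread, which may be technical.

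Busulfan is an alkylating drug that crosslinks DNA and is used before bone marrow transplantation. AOS are short sugar chains released from the alginate of brown algae. The endoplasmic reticulum (ER) folds secreted and membrane proteins with the help of chaperones such as Hspa5 (BiP) and of protein disulfide isomerases. When misfolded protein builds up there, the sensors Ern1 (IRE1), Eif2ak3 (PERK) and Atf6 start the unfolded protein response, which raises the transcription of chaperones and of genes for the degradation of misfolded protein. The transcription factors Atf6 and Xbp1 act in part through the ER stress response element in promoters. Interferons act in part through transcription factors that bind the interferon-stimulated response element.

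No gene passed in edgeR over all 14687 tested genes. In that test (quasi-likelihood, Benjamini-Hochberg) 0 genes (0%) had an adjusted p under 0.05, and the smallest was 0.469. At an unadjusted p under 0.05 there were 1494 genes (10.2%), 891 higher (6.07%) and 603 lower (4.11%) with busulfan plus AOS. DESeq2 called 45 higher (0.306%) and 8 lower (0.0545%), and limma-voom and limma on log2 FPKM called 0, with 1420 and 1448 genes at an unadjusted p under 0.05. In 1542 genes (10.5%) all 3 busulfan plus AOS libraries lay above all 3 busulfan libraries in CPM, the count scaled to the library size, and in 1613 (11.0%) all 3 lay below. None of the gene values below is therefore a called change in edgeR, and directions are given as differences between group means. Gene lists are described by counts and medians, set beside the same over all tested genes, of which 50.2% had a positive and 49.8% a negative log2 fold change.

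The libraries differed in depth by little and in tissue markers by a great deal. Totals lay between 11836106 and 13620815 estimated counts in the 6 libraries. Genes of the ventricular muscle list, which shares members such as Tnnt2 with the sarcomere list described below, were present in all of them. Levels are in FPKM, which are counts scaled by gene length and library total. The ventricular myosin light chain Myl2 was at 2542, 9966 and 8826 FPKM in the busulfan plus AOS libraries 1, 2 and 3. The busulfan libraries had 13644, 9465 and 12785 FPKM of Myl2. The mean log2 CPM of the 10 atrial markers was 8.26, 6.16 and 7.43 with busulfan plus AOS, against 1.36, 5.70 and 3.99 with busulfan, so the groups did not overlap. Their summed level ran from 3214 to 15111 FPKM with busulfan plus AOS and from 39.6 to 2646 FPKM with busulfan, and the atrial myosin light chain Myl7 was at 5488, 1177 and 3121 FPKM with busulfan plus AOS, against 6.34, 1035 and 214 FPKM with busulfan. Adipocyte markers stood apart in busulfan replicate 1, at a mean log2 CPM of 1.17 against 4.97 to 7.31 in the other 5 libraries.

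Among the 6 libraries, transcripts of airway and liver genes peaked in single busulfan plus AOS libraries, and their source was not tested. The airway secretory gene Scgb1a1 was at 1031, 60.2 and 7.21 FPKM with busulfan plus AOS, against 0.76, 1.20 and 2.06 FPKM with busulfan. Scgb3a1, another airway secretory gene, was at 213, 11.9 and 1.88 FPKM with busulfan plus AOS and listed at 0 in all 3 busulfan libraries. The airway list was not uniform. Of its 9 tested genes 8 were higher and 1 lower, Sftpc, at a log2 fold change of -1.34. Sftpb had 0.70 and Lyz1 had 1.10, against a list median of 7.81. The liver gene Alb, which encodes serum albumin, was at 12.9, 871 and 188 FPKM with busulfan plus AOS, against 18.9, 31.6 and 5.10 FPKM with busulfan. In 11 genes replicate 1 of busulfan plus AOS was at 20 CPM or more and at least 5-fold above the rest of its group. It was also at least 30-fold above the median of the other groups, so a library there could still be higher. The airway markers had a mean log2 CPM of 5.77 in AOS replicate 2, against 4.41 in replicate 1 of busulfan plus AOS. In the 11 genes, replicate 2 of busulfan plus AOS held a median of 6.79% of the replicate 1 level and replicate 3 held 0.575%. Among 10 such genes of replicate 2, replicate 3 held 18.8% and replicate 1 held 1.32%. Reads shared between libraries were not tested as a source of these shares.

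**Figure D1:**
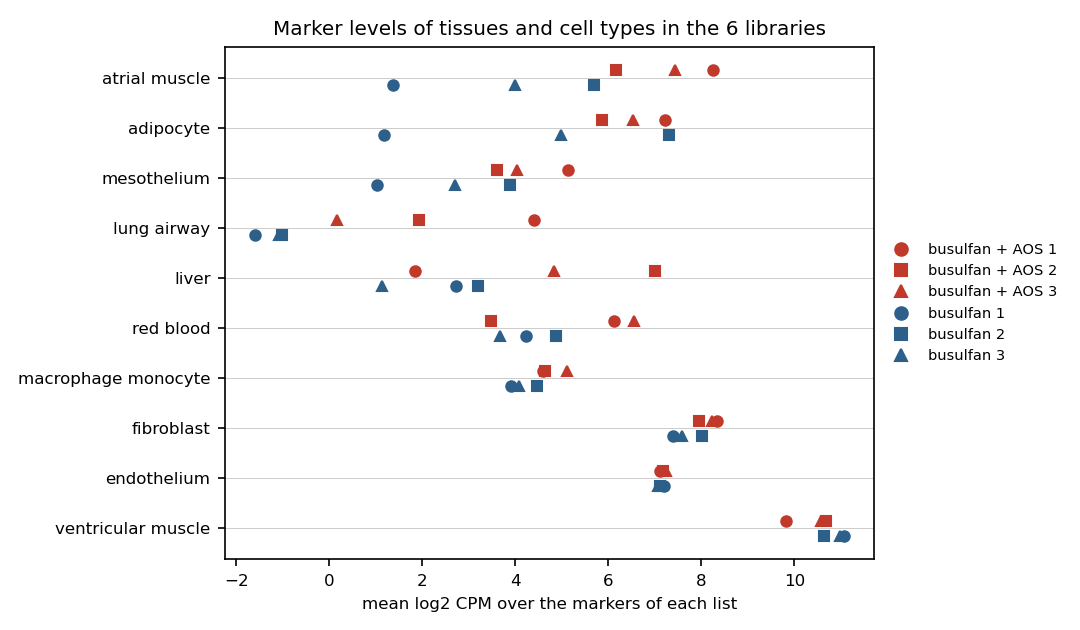
Mean log2 CPM over the markers of each tissue or cell type (horizontal axis) in the 3 busulfan plus AOS libraries (red, upper row of each line) and the 3 busulfan libraries (blue, lower row), with a symbol for each replicate number. Atrial markers lie between 6.16 and 8.26 with busulfan plus AOS and between 1.36 and 5.70 with busulfan, while endothelial markers lie between 7.06 and 7.23 in all 6 libraries.

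Promoter sequences of the ER and interferon genes described below are shown first, because windows of the ER chaperone list and of the interferon list hold a short motif more often than all windows do. They are the 200 bases before the RefSeq transcription start in GRCm38.p6, the assembly also called mm10, written 5′ to 3′ on the strand of the gene, with the motif in capitals. The ER stress response element was searched as CCAAT, then 9 bases of any kind, then CCACG, on both strands, in windows of 250 bases before to 50 bases after each start. It was found in 7 of 17 windows of the ER chaperone list (41.2%) and in 39 of all 32851 windows (0.119%). The 7 were those of Calr, Canx, Creld2, Dnajc3, Hsp90b1, Hspa5 and Pdia6, and the windows of the ER-associated degradation genes Derl3 and Syvn1 also held it, 2 of 16 windows (12.5%). It was in 0 of 15 windows of the unfolded protein response sensors and effectors and in 0 of 21 of the ER export and translocon list. Of the 20 chaperone genes, 17 had a window. In Creld2 and Calr the motif lies on the opposite strand and so reads CGTGG first.
Creld2: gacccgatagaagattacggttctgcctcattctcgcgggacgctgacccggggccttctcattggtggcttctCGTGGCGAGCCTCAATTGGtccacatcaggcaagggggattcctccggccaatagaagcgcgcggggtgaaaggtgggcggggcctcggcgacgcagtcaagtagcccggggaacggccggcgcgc
Pdia6: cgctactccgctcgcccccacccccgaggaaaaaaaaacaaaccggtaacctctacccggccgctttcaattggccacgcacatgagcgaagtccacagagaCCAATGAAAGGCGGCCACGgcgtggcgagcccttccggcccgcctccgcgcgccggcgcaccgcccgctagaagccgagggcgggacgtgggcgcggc
Calr: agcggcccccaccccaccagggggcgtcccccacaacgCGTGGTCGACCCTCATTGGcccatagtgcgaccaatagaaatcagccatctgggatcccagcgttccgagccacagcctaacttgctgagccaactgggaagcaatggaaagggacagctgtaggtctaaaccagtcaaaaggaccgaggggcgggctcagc
Syvn1: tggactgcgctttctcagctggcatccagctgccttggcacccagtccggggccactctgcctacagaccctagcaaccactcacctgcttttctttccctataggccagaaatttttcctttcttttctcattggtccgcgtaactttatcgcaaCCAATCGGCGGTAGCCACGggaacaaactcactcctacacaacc
Hspa5: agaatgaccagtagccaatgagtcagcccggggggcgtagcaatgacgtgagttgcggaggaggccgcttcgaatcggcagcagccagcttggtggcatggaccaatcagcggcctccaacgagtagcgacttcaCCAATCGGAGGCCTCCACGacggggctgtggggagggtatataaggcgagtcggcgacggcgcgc
The windows printed are chr15:88819446-88819645 (plus strand) for Creld2, chr12:17266389-17266588 (plus strand) for Pdia6, chr8:84846932-84847131 (minus strand) for Calr, chr19:6046376-6046575 (plus strand) for Syvn1 and chr2:34771890-34772089 (plus strand) for Hspa5. A match is a run of letters and not a measured binding site.

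The interferon-stimulated response element was searched in the same windows as GAAA, then 2 bases of any kind, then GAAA, on both strands. It was found in 20 of 32 windows of the interferon response list (62.5%, 18 genes) and in 1131 of all 32851 windows (3.44%). In all, 1 window held both motifs. The ER chaperone list had it in 1 of 17 windows (5.88%), that of Serp1. Shown are Apol9a, which had the smallest p of the list, and Igtp and Irgm1, which encode interferon-inducible GTPases. In Apol9a and in Irgm1 a pair of matches overlap and form a single run of capitals.
Apol9a: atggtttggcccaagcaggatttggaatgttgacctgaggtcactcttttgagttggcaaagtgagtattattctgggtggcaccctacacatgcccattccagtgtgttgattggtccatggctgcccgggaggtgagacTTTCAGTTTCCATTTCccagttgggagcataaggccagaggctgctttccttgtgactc
Igtp: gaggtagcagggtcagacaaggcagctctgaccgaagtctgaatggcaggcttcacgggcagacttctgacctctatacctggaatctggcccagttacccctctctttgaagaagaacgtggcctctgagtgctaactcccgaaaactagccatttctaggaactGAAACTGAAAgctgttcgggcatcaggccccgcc
Irgm1: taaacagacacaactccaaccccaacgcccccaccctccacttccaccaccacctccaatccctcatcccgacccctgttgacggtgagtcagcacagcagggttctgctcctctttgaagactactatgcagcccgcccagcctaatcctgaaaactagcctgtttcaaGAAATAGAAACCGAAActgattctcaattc
These windows are chr15:77411081-77411280 (minus strand), chr11:58199356-58199555 (plus strand) and chr11:48871421-48871620 (minus strand).

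Genes of the ER chaperone list had higher means with busulfan plus AOS. Of 20 tested, 18 were higher and 2 lower, and the median log2 fold change was 0.41, against 0.00 over all tested genes. All 3 busulfan plus AOS libraries lay above all 3 busulfan libraries in 13 of the 20, against 10.5% of all genes. An unadjusted p under 0.05 was reached as higher by 12 of the 20 and as lower by 0, against 6.07% and 4.11% of all genes, and DESeq2 called 8 of the 20 as higher, against 0.306%. In edgeR 0 of the 20 passed after adjustment.

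Among the chaperones and their cofactors, Sdf2l1 and Creld2 had the largest differences. Creld2 (gene 76737, chromosome 15, 88819646 to 88826681), an ER resident that assists folding, was at 32.4, 19.4 and 19.4 FPKM with busulfan plus AOS, against 9.49, 12.6 and 10.4 FPKM with busulfan. Every busulfan plus AOS library exceeded every busulfan library. The means were 23.7 ± 7.50 FPKM with busulfan plus AOS and 10.8 ± 1.58 FPKM with busulfan (SD, n = 3 each). The fitted difference was 2.04-fold (log2 fold change 1.03 ± 0.19 SE, DESeq2 adjusted p = 0.00308). Fold differences here and below come from the edgeR fit of scaled counts and are not ratios of mean FPKM. Sdf2l1, a cofactor of BiP, was at 19.4, 11.3 and 13.1 FPKM with busulfan plus AOS, against 3.97, 7.48 and 5.15 FPKM with busulfan. Its fitted difference was 2.46-fold (log2 fold change 1.30 ± 0.28 SE, DESeq2 adjusted p = 0.0146), again without overlap. Manf, a secreted ER stress protein, was at 53, 34.6 and 43.0 FPKM with busulfan plus AOS, against 18.5, 26.7 and 23.6 FPKM with busulfan (log2 fold change 0.81 ± 0.18 SE). Hyou1, a large chaperone of the HSP70 family, was at 31.6, 21.4 and 21.8 FPKM with busulfan plus AOS, against 13.7, 17.6 and 15.2 FPKM with busulfan (0.58 ± 0.13). In these 4 genes replicate 1 was the highest of the busulfan plus AOS libraries and busulfan replicate 1 the lowest of its group.

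Of the protein disulfide isomerases, which form and rearrange disulfide bonds, Pdia4 and Pdia6 had the smallest p. Pdia4 was at 45.2, 27.6 and 30.6 FPKM with busulfan plus AOS, against 13.7, 19.8 and 18 FPKM with busulfan (log2 fold change 0.90 ± 0.19 SE). Pdia6 was at 89.2, 69.6 and 74.5 FPKM with busulfan plus AOS, against 41.9, 54.8 and 52.0 FPKM with busulfan (0.54 ± 0.11). DESeq2 called both, with adjusted p of 0.0111 and 0.00843. Further members were chosen after their values were seen, for their place in the pathway. Pdia3, which works with the lectin chaperones, was at 211, 150 and 174 FPKM with busulfan plus AOS, against 92.3, 130 and 114 FPKM with busulfan (0.56), and the calcium-binding lectin chaperone Calr at 330, 267 and 315 FPKM with busulfan plus AOS, against 177, 224 and 210 FPKM with busulfan (0.47). The groups did not overlap in either gene, and DESeq2 called both (adjusted p = 0.0451 and 0.00765). The major chaperones Hspa5 and Hsp90b1 differed by less, with log2 fold changes of 0.38 and 0.35 and no overlap. Hspa5 was at 455, 354 and 381 FPKM with busulfan plus AOS, against 224, 296 and 326 FPKM with busulfan. The 2 members with lower means were Cdnf (-0.50) and Dnajc10 (-0.02), a disulfide reductase of the isomerase family, and Sil1 and Canx lay at 0.00 and 0.01; these 4 were named after their values were seen.

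**Figure D2:**
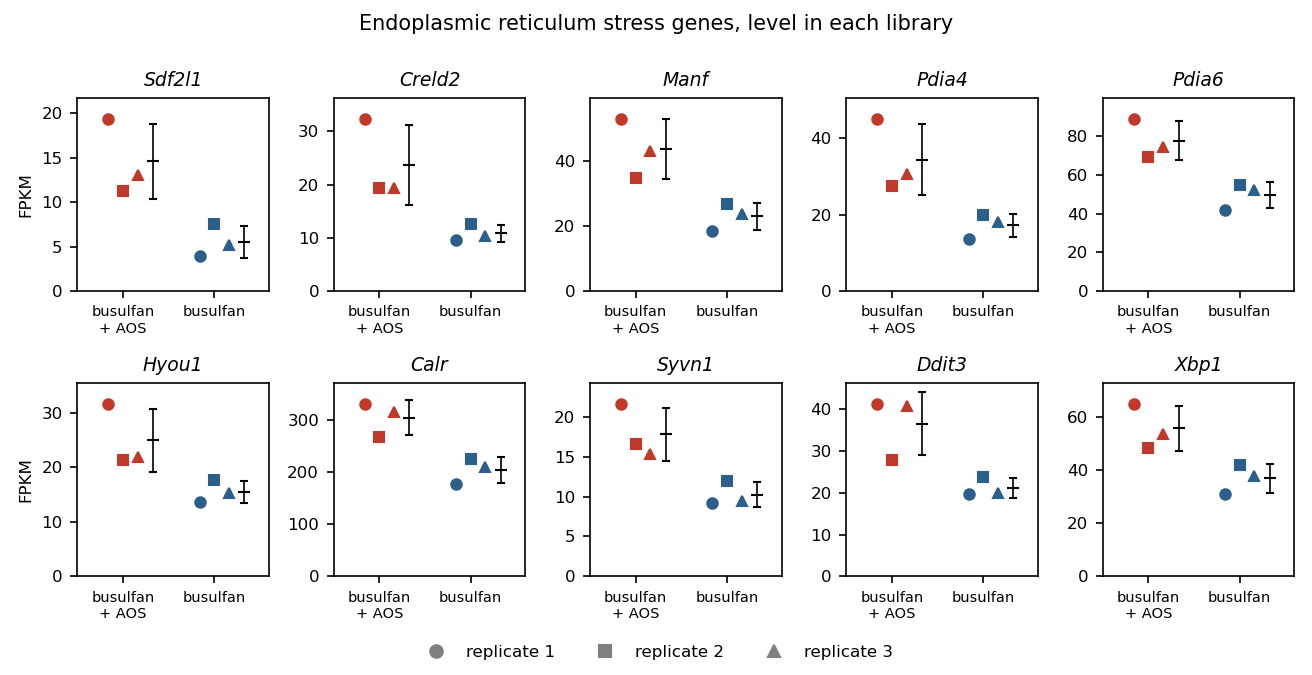
FPKM (vertical axis, from 0) of 10 ER stress genes in each busulfan plus AOS library (red, left) and each busulfan library (blue, right), with a symbol for each replicate number and black bars for the mean ± SD (n = 3 each). In all 10 genes the 3 busulfan plus AOS libraries lie above the 3 busulfan libraries; for Creld2 they span 19.4 to 32.4 with busulfan plus AOS and 9.49 to 12.6 with busulfan.

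The sensors of the unfolded protein response and its effectors were less uniform. Of 16 tested members, 12 were higher and 4 lower (median log2 fold change 0.22), and 4 had an unadjusted p under 0.05 as higher, against 6.07% of all genes. Without replicate 1 of busulfan plus AOS that count was 2, in a fit with 836 of all genes at that p in either direction. Ddit3 (CHOP), a transcription factor of the PERK branch, was at 41.3, 27.8 and 40.8 FPKM with busulfan plus AOS, against 19.8, 23.9 and 19.9 FPKM with busulfan. It did not overlap between groups (log2 fold change 0.70 ± 0.14 SE, 1.63-fold) and was the member called by DESeq2 (adjusted p = 0.0146). Xbp1, whose messenger is spliced by IRE1, was at 64.8, 48.3 and 53.7 FPKM with busulfan plus AOS, against 30.9, 41.8 and 37.8 FPKM with busulfan (0.50 ± 0.14); its splicing is not measured by gene counts. Atf6 was at 23.3, 21.0 and 22.5 FPKM with busulfan plus AOS, against 23.7, 23.4 and 28.6 FPKM with busulfan (-0.27 ± 0.16).

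Syvn1 (HRD1), the ubiquitin ligase of ER-associated degradation, was at 21.6, 16.6 and 15.3 FPKM with busulfan plus AOS, against 9.16, 12 and 9.50 FPKM with busulfan (log2 fold change 0.70 ± 0.14 SE; DESeq2 adjusted p = 0.00498). It was not typical of its list, in which 12 of 16 tested members were higher and 4 lower, with a median of 0.13 and 3 at an unadjusted p under 0.05 as higher, against 6.07% of all genes. Without replicate 1 of busulfan plus AOS the median was 0.03, and without busulfan replicate 1 it was 0.05, with 1 such gene in each case. Those fits had 836 and 644 of all genes at that p in either direction. The 22 genes of ER export and the translocon had a median of 0.09, with 16 higher and 6 lower, among them the KDEL receptor Kdelr2 (0.42) and the translocon subunit Sec61a1 (0.47). Outside these lists, B4galt5, a galactosyltransferase of the Golgi (gene 56336, chromosome 2, 167298444 to 167349178), had the smallest p of all higher genes. It was at 11.1, 8.12 and 8.01 FPKM with busulfan plus AOS, against 4.73, 5.24 and 4.37 FPKM with busulfan (log2 fold change 0.81 ± 0.14 SE; edgeR unadjusted p = 9.76e-05, adjusted p = 0.469; DESeq2 adjusted p = 0.000555).

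The ER chaperone levels put the 6 libraries in the same order as the atrial markers did. Their mean log2 CPM was 6.91, 6.67 and 6.72 with busulfan plus AOS, against 6.22, 6.46 and 6.43 with busulfan, and replicate 1 of each group was the extreme library in both measures. With the mean atrial marker level as a covariate, 16 of 20 members were higher, with a median of 0.27, and 9 had an unadjusted p under 0.05 as higher, against 1.67% of all genes in that fit. Without replicate 1 of busulfan plus AOS the median was 0.29, and without replicate 1 of busulfan it was 0.30. In each case 10 of 20 members had an unadjusted p under 0.05, in fits with 836 and 644 of all genes at that p in either direction. The part of atrial tissue in these differences was not tested beyond this.

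Whether the response to AOS depended on prior busulfan was asked by the AOS effect after busulfan minus the AOS effect without it. These effects share no library. The AOS effect after busulfan is the comparison described above, so the difference contains it and is not independent of it. Over all genes 0 (0%) passed in edgeR. At an unadjusted p under 0.05 there were 432 genes (2.94%), 212 with a positive difference (1.44%) and 220 with a negative one (1.50%). The ER chaperones had a median log2 fold change of 0.41 with AOS after busulfan and of -0.06 with AOS alone against untreated hearts, where 6 of 20 were higher. The difference was positive at an unadjusted p under 0.05 in 13 of 20 members and negative in 0. Creld2 was at 9.13, 11.7 and 9.83 FPKM in AOS hearts, against 11.1, 9.62 and 9.35 FPKM in control hearts, which overlap. Its difference was 1.13 ± 0.26 SE on the log2 scale (edgeR unadjusted p = 0.00132, adjusted p = 1.000). For Manf the AOS libraries had 15.7, 19.7 and 20.5 FPKM, against 18.3, 22.1 and 16 FPKM in control libraries, and the difference was 0.94 ± 0.25 SE. Pdia6 had a difference of 0.66 and Ddit3 one of 0.76. The mean log2 CPM of the 20 chaperones lay between 6.09 and 6.21 in AOS hearts and between 6.10 and 6.27 in control hearts, and 5 of the 6 libraries that had received busulfan lay above that range, with busulfan replicate 1 within it at 6.22. With each of the 12 libraries left out, 8 to 12 of 20 members had a positive difference at an unadjusted p under 0.05. Over all 14687 tested genes the same fits gave 131 to 610 such differences. The atrial covariate gave 9 members, in a fit with 854 of all genes at that p in either direction.

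**Figure D3:**
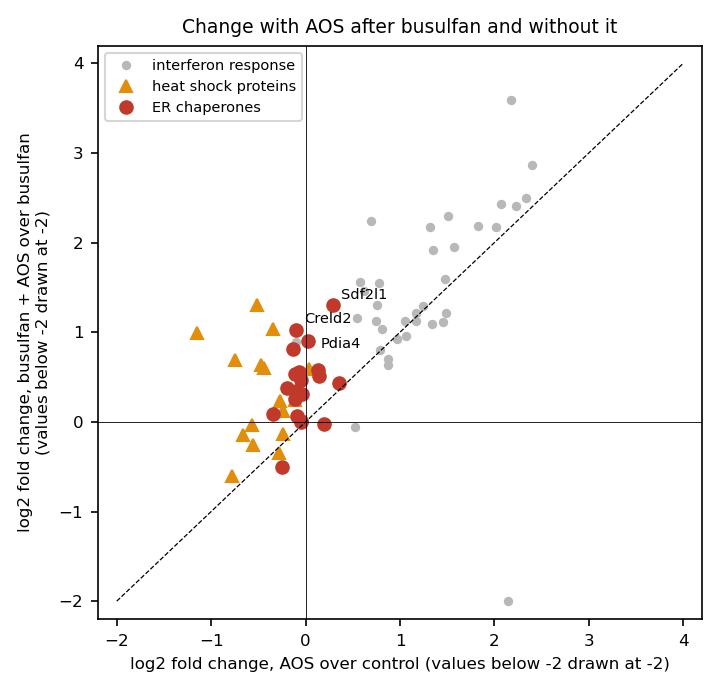
Log2 fold change of each gene with AOS after busulfan (vertical axis) against that with AOS without busulfan (horizontal axis), for ER chaperones (red circles), heat shock proteins (orange triangles) and interferon response genes (grey dots); the dashed line marks equal values and the axes share no library. ER chaperones have medians of 0.41 on the vertical and -0.06 on the horizontal axis, while interferon response genes have medians of 1.29 and 1.17.

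Interferon response genes also had higher means with busulfan plus AOS, in 33 of 35 tested members. Their median on the log2 scale was 1.29. The 2 lower members, named after their values were seen, were Ifi47 and Oasl2. Ifi47 had a log2 fold change of -5.23, the largest absolute change of the list, and Oasl2 had -0.06. In 16 of 35 the groups did not overlap, against 10.5% of all genes, and 21 had an unadjusted p under 0.05 as higher, against 6.07%. Apol9a, an interferon-induced gene of the apolipoprotein L family (gene 223672, chromosome 15, 77403789 to 77411080), was at 5.00, 4.93 and 18.9 FPKM with busulfan plus AOS, against 0.58, 1.17 and 0.49 FPKM with busulfan (log2 fold change 3.59 ± 0.70 SE; DESeq2 adjusted p = 0.000668). Its copy Apol9b is similar enough that reads could be split between them. Igtp, an interferon-inducible GTPase that acts against intracellular pathogens, was at 35.2, 32.6 and 159 FPKM with busulfan plus AOS, against 12.1, 19.8 and 13.1 FPKM with busulfan (2.24 ± 0.59). Irgm1, another GTPase of this family, was at 26.8, 31.5 and 92.3 FPKM with busulfan plus AOS, against 13.3, 22.9 and 14.4 FPKM with busulfan (1.46 ± 0.46). Replicate 3 was the highest busulfan plus AOS library in all 3 genes, and replicate 2 the highest busulfan library. Stat2, a transcription factor of interferon signalling, had a log2 fold change of 1.31, without overlap.

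The size of the interferon difference depended on replicate 3 of busulfan plus AOS. The mean log2 CPM of the list was 4.12, 4.47 and 5.75 with busulfan plus AOS, against 3.07, 4.10 and 3.13 with busulfan. Without replicate 3 of busulfan plus AOS the median fold change was 0.68 on the log2 scale, and 5 of 35 members had an unadjusted p under 0.05 as higher, against 4.73% of all genes in that fit. Without busulfan replicate 1 the count was 9, against 2.83% of all genes, and without busulfan replicate 3 it was also 9, against 2.53%. With the atrial covariate it was 4, against 1.67% of all genes, with a median of 0.60. With the mean adipocyte marker level as a covariate it was 12, against 3.65%, with a median of 0.99. AOS without busulfan gave a median of 1.17 for these genes, with 34 of 35 higher. At an unadjusted p under 0.05, 0 members had a positive difference between the AOS effects, against 1.44% of all genes. A negative one was seen in 1 member, Ifi47, against 1.50%. The list's mean log2 CPM was 2.49, 4.83 and 3.47 with AOS, against 2.77, 2.60 and 2.83 in controls. AOS replicate 2, which also had atrial markers at 8.21, thus stood highest. Without that library the median difference between the AOS effects was 1.04, and 2 members were positive at an unadjusted p under 0.05. That fit had 1046 of all genes at that p in either direction. The interferon-inducible GTPase gene Irgm2, chosen after its values were seen, was at 19.3, 23.9 and 77.3 FPKM with busulfan plus AOS, against 8.70, 13.6 and 8.31 FPKM with busulfan.

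Antigen presentation genes, many of them inducible by interferon, had higher means as well. All 9 tested class I genes of 11 listed were higher, 4 of them without overlap, against 10.5% of all genes. Their median was 1.07 on the log2 scale, and 0.53 without replicate 3 of busulfan plus AOS. H2-K1, a class I heavy chain, was at 259, 219 and 381 FPKM with busulfan plus AOS, against 79.9, 154 and 71.0 FPKM with busulfan (1.39 ± 0.35 SE; DESeq2 adjusted p = 0.0197). B2m, the shared light chain, was at 662, 773 and 1269 FPKM with busulfan plus AOS, against 363, 531 and 329 FPKM with busulfan (1.06 ± 0.31). Class I heavy chains are similar in sequence, so counts of single members are uncertain. Class II genes were higher in 8 of 8, with a median of 0.69, among them the protease Ctss, which processes the class II chaperone, at 32.0, 43.1 and 53.4 FPKM with busulfan plus AOS, against 11.9, 24.1 and 19.7 FPKM with busulfan. The master regulators Nlrc5 (class I) and Ciita (class II) had log2 fold changes of 1.85 and 1.34, at levels below 6 FPKM.

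Chemokines that recruit monocytes and lymphocytes followed. Of 21 listed, 17 were tested, and 15 of these had higher means, 8 without overlap (10.5% of all genes) and 9 at an unadjusted p under 0.05 (6.07% of all genes), with a median of 0.74. That count was 5 without busulfan replicate 1, without busulfan replicate 3 or without replicate 3 of busulfan plus AOS. It was 6 without replicate 1 or without replicate 2 of busulfan plus AOS. In this order, the fits had 644, 682, 1114, 836 and 1678 of all genes at that p in either direction. Without busulfan replicate 2 the median was 1.25. The monocyte chemoattractant Ccl2 (gene 20296, chromosome 11, 82035577 to 82037452) was at 8.73, 6.89 and 9.21 FPKM with busulfan plus AOS, against 3.38, 2.50 and 2.67 FPKM with busulfan. The means were 8.28 ± 1.22 FPKM with busulfan plus AOS and 2.85 ± 0.467 FPKM with busulfan (SD, n = 3 each). The fitted difference was 2.69-fold (log2 fold change 1.43 ± 0.37 SE). The interferon-inducible chemokine Cxcl10 was at 6.14, 2.56 and 4.49 FPKM with busulfan plus AOS, against 0.43, 0.74 and 0 FPKM with busulfan, and DESeq2 called it (adjusted p = 0.0472). Both had a positive difference between the AOS effects, 1.65 for Ccl2 (edgeR unadjusted p = 0.00970) and 4.81 for Cxcl10 (0.00620), each with an adjusted p of 1.000. Ccl6, a chemokine of mice made by myeloid cells, was at 33.8, 35.5 and 41.3 FPKM with busulfan plus AOS, against 8.32, 21.9 and 12.8 FPKM with busulfan (1.28), and Ccl7 and Ccl8 had 1.24 and 2.18. The 2 members with lower means, named after their values were seen, were Cxcl12 (-0.63) and Cx3cl1 (-0.25). With the atrial covariate 3 of the 17 chemokines and 0 of the 8 class II genes had an unadjusted p under 0.05 as higher, against 1.67% of all genes in that fit, with medians of 0.60 and 0.53.

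Leukocyte adhesion genes had higher means in 10 of 11, with a median of 0.77, and 4 of 11 did not overlap, against 10.5% of all genes. An unadjusted p under 0.05 as higher was reached by 4 of 11, against 6.07% of all genes. It was reached by 1 without busulfan replicate 1 or without busulfan replicate 3 and by 7 without busulfan replicate 2. With the atrial covariate 0 reached it, and the median was 0.12. In this order, the fits had 644, 682, 2175 and 512 of all genes at that p in either direction. Icam1, which holds leukocytes on the vessel wall, was at 17.6, 12.1 and 12.8 FPKM with busulfan plus AOS, against 6.63, 7.94 and 7.36 FPKM with busulfan (0.84 ± 0.24 SE). Its partner subunit on leukocytes, Itgb2, had a log2 fold change of 1.02. The member with a lower mean was Icam2, at -0.12, named after its value was seen.

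Of 16 macrophage and monocyte markers, 15 were higher, 11 without overlap (10.5% of all genes) and 9 at an unadjusted p under 0.05 (6.07% of all genes), with a median of 0.71. Their summed level was 694 to 903 FPKM with busulfan plus AOS, against 342 to 561 FPKM with busulfan. C1qb, a complement chain made by macrophages, was at 71.4, 77.0 and 113 FPKM with busulfan plus AOS, against 39.2, 49.3 and 38.1 FPKM with busulfan (0.95 ± 0.27, 1.93-fold). Cd68, a lysosomal macrophage marker, had 0.81 and the mannose receptor Mrc1 0.52. The member with a lower mean was Ly6c2, at -1.48, the largest absolute change of the list, named after its value was seen. In bulk tissue, more cells of a type and more RNA per cell cannot be told apart. With the atrial covariate the macrophage median was 0.33 and 0 of 16 had an unadjusted p under 0.05. Without replicate 3 of busulfan plus AOS the median was 0.53, with 4 of 16, and without busulfan replicate 1 it was 0.61, also with 4 of 16. In this order, the fits had 512, 1114 and 644 of all genes at that p in either direction. Of 15 feedback genes of NF-kB and JAK-STAT signalling 13 were higher, with a median of 0.23. The groups did not overlap in 6, against 10.5% of all genes. An unadjusted p under 0.05 as higher was reached by 5, against 6.07% of all genes. The negative regulators Socs3 and Socs1 had log2 fold changes of 0.88 and 1.59, without overlap, and Cish of the same family, named after its value was seen, had -0.22.

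**Figure D4:**
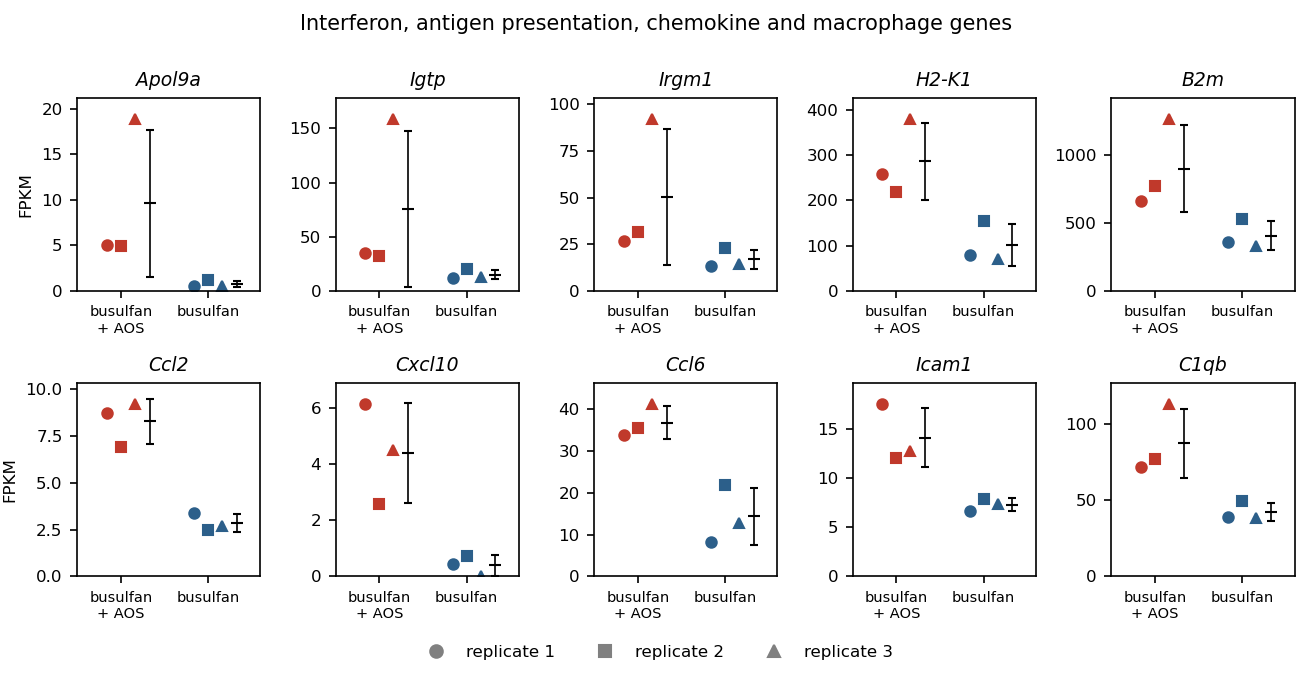
FPKM (vertical axis, from 0) of 10 interferon, antigen presentation, chemokine, adhesion and macrophage genes in each busulfan plus AOS library (red, left) and each busulfan library (blue, right), with a symbol for each replicate number and black bars for the mean ± SD (n = 3 each). Replicate 3 of busulfan plus AOS stands above the others for Apol9a, Igtp and Irgm1, whereas Ccl2 lies between 6.89 and 9.21 in that group and between 2.50 and 3.38 with busulfan.

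Genes of mitochondrial respiration had lower means with busulfan plus AOS. Of 78 genes of the respiratory chain and ATP synthase, 77 were lower, by a median of -0.48 on the log2 scale, and in 61 the busulfan plus AOS libraries all lay below the busulfan libraries, against 11.0% of all genes. An unadjusted p under 0.05 as lower was reached by 9 of the 78, against 4.11% of all genes. All 37 complex I genes were lower, as were the 4 of complex II, the 9 of complex III and the 13 of complex IV, and 14 of 15 of complex V. Ndufb4, a complex I subunit, was at 322, 442 and 468 FPKM with busulfan plus AOS, against 678, 562 and 621 FPKM with busulfan (log2 fold change -0.68 ± 0.25 SE). Cox6b1, a complex IV subunit, was at 1114, 1477 and 1617 FPKM with busulfan plus AOS, against 2124, 1839 and 2015 FPKM with busulfan (-0.59 ± 0.26). Replicate 1 was the lowest busulfan plus AOS library in both, and the groups did not overlap.

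Fuel oxidation and contraction genes lay on the same side. Fatty acid oxidation genes were lower in 20 of 22, the tricarboxylic acid cycle genes in 14 of 14 and the glycolysis genes in 17 of 18. With the atrial covariate their medians were -0.10, -0.10 and -0.03. Acadl, the long-chain acyl-CoA dehydrogenase, had the largest log2 fold change of the fatty acid oxidation list (6.36 ± 2.27 SE). It was at 45.4, 1.80 and 0.12 FPKM with busulfan plus AOS, against 0.06, 0.10 and 0.27 FPKM with busulfan, which overlap, and at 0.23, 0.11 and 0 FPKM with AOS, against 0.52, 75.0 and 6.22 FPKM in controls. Cd36, which takes up fatty acids, was at 407, 698 and 541 FPKM with busulfan plus AOS, against 806, 712 and 841 FPKM with busulfan (-0.62 ± 0.28 SE). The coactivators of mitochondrial genes Ppargc1a and Ppargc1b had -0.53 and -0.43. Sarcomere genes were lower in 16 of 18, and 2 of 18 did not overlap, against 11.0% of all genes. Their median was -0.36, and 0.05 with the atrial covariate, where 12 of 18 were higher. The cardiac myosin-binding protein Mybpc3 was at 342, 731 and 640 FPKM with busulfan plus AOS, against 983, 736 and 889 FPKM with busulfan.

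Genes of the ventricular muscle list were lower in 9 of 10, and Hey2 was higher (0.24). Their summed level was 22570 to 37968 FPKM with busulfan plus AOS and 36801 to 49462 FPKM with busulfan. That list shares members with the sarcomere list, so it does not measure the ventricle alone. With the atrial covariate the median of the 78 respiratory genes was -0.07, 69 were lower and 0 had an unadjusted p under 0.05 as lower, and with the adipocyte covariate the median was -0.26 with 0 such genes. Without replicate 1 of busulfan plus AOS the median was -0.31, and without replicate 1 of busulfan it was -0.37, with 0 genes at an unadjusted p under 0.05 as lower in both cases. Without replicate 2 of the AOS group, which enters only the estimate of the spread, 65 of 78 reached it, against 8.84% of all genes. AOS without busulfan gave a median of -0.38 for complex I. At an unadjusted p under 0.05, 0 of its 37 genes differed between the AOS effects, against 2.94% of all genes.

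**Figure D5:**
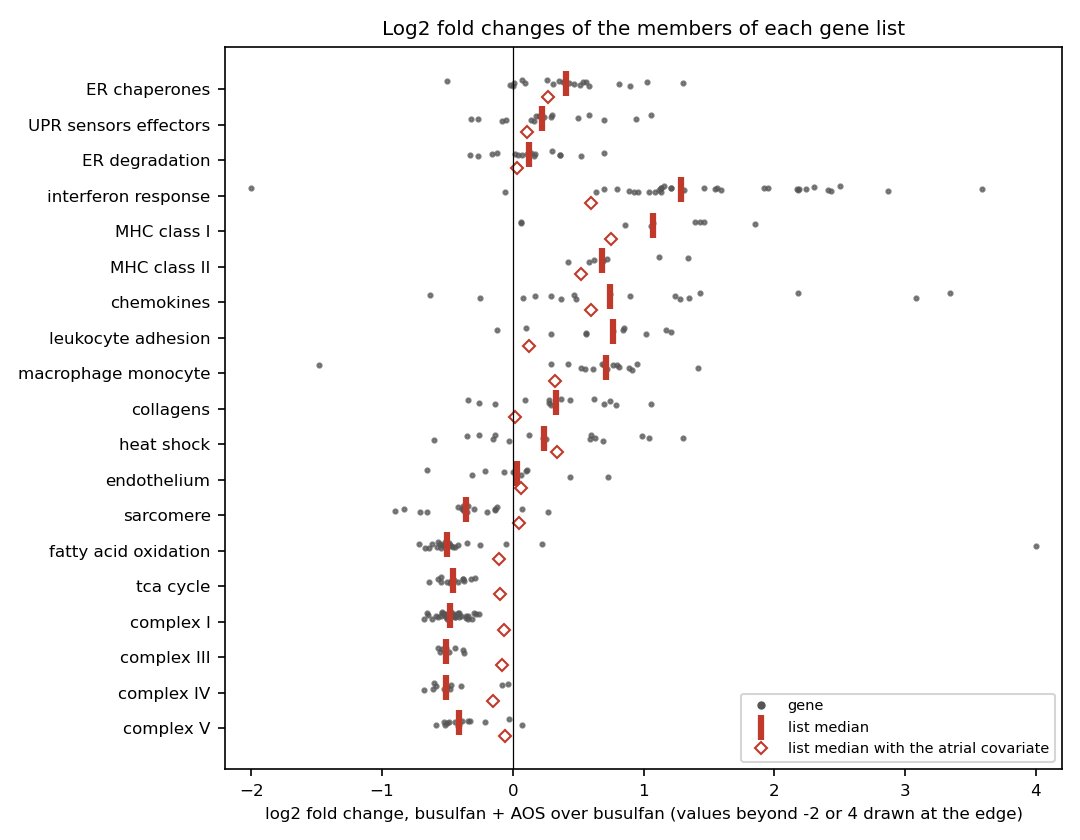
Log2 fold change of busulfan plus AOS over busulfan (horizontal axis) for every tested member of 19 gene lists (grey dots), with the list median (red bar) and the list median when the atrial marker level is a covariate (open diamond). The medians of the respiratory complexes move from between -0.51 and -0.41 to between -0.15 and -0.06 with the covariate, whereas that of the ER chaperones moves from 0.41 to 0.27.

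Among the genes with the smallest p outside the ER, immune and metabolic lists, Mmrn2, an endothelial matrix protein, was at 29.2, 26.3 and 29.1 FPKM with busulfan plus AOS, against 19.0, 17.9 and 20.7 FPKM with busulfan. Its means were 28.2 ± 1.69 FPKM with busulfan plus AOS and 19.2 ± 1.41 FPKM with busulfan (SD, n = 3 each). The fitted difference was 1.36-fold (log2 fold change 0.44 ± 0.09 SE, DESeq2 adjusted p = 0.00498). The 10 endothelial markers, of which Mmrn2 is one, had a median of 0.03. Rtl8c, a gene derived from a retrotransposon, was at 10.0, 11.2 and 10.2 FPKM with busulfan plus AOS, against 2.73, 6.03 and 2.74 FPKM with busulfan (1.36 ± 0.28), and Ier2, an immediate early gene, at 20.6, 16.1 and 13.3 FPKM with busulfan plus AOS, against 6.72, 7.89 and 8.14 FPKM with busulfan (1.03 ± 0.21). The largest fitted changes among higher genes were those of the airway genes Scgb3a1, Bpifa1, Scgb3a2, Scgb1a1 and Ltf and of the antimicrobial lectin Reg3g, all highest in replicate 1 among these 6 libraries. Scgb3a1 and Reg3g were listed at 0 in all busulfan libraries, and Scgb1a1 was at 4155 FPKM in replicate 2 of the AOS group. Bpifa1 was at 564, 34.7 and 1.91 FPKM with busulfan plus AOS, against 0, 0.08 and 0.26 FPKM with busulfan. Of the 45 genes DESeq2 called as higher, 10 were in the ER lists, 6 in the interferon, class I, class II or chemokine lists and 4 in the airway list. Of the 14687 tested genes, the ER lists held 20, 16, 16 and 22. The interferon, class I, class II and chemokine lists held 35, 9, 8 and 17, and the airway list held 9.

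The 8 genes that DESeq2 called as lower belonged to none of the 46 gene lists. Those lists hold only a small part of the 14687 tested genes, so this says little about the 8. Thnsl1, a threonine synthase-like protein, was at 2.18, 2.16 and 2.43 FPKM with busulfan plus AOS, against 3.92, 3.83 and 3.84 FPKM with busulfan (log2 fold change -0.86 ± 0.17 SE; DESeq2 adjusted p = 0.0146). Mblac2, a metallo-beta-lactamase domain protein, was at 2.29, 3.27 and 2.38 FPKM with busulfan plus AOS, against 4.35, 4.35 and 4.13 FPKM with busulfan (-0.79 ± 0.17). The translation initiation factor subunit Eif3j1, which has a near-identical copy and so an uncertain count, was at 10.5, 7.98 and 7.24 FPKM with busulfan plus AOS, against 16.3, 18.2 and 17.7 FPKM with busulfan (-1.13 ± 0.25). Neurl1b, a ubiquitin ligase of Notch signalling, and Ripor2 had -0.71 and -1.06. Larger differences with wider spread were seen for Ptgds, the prostaglandin D2 synthase, at 92.0, 88.8 and 152 FPKM with busulfan plus AOS, against 959, 192 and 206 FPKM with busulfan. Gdpd3, a phospholipase of the glycerophosphodiesterase family, was at 0.16, 0.17 and 0.17 FPKM with busulfan plus AOS, against 23.6, 25.2 and 5.83 FPKM with busulfan. It was also below 1 FPKM in AOS replicate 1 and in control replicate 1, and its level within the groups without busulfan ran from 0.18 to 23.0 FPKM with AOS and from 0.65 to 27.1 FPKM in controls.

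Genes that bear on busulfan's own action had list medians near 0. Of 20 p53 targets, 12 were higher and 8 lower, with a median of 0.09. The proapoptotic target Bbc3 (PUMA) was at 1.94, 2.25 and 2.59 FPKM with busulfan plus AOS, against 1.61, 1.34 and 1.05 FPKM with busulfan (0.68 ± 0.25 SE). An unadjusted p under 0.05 as higher was reached by 1 of 20, against 6.07% of all genes. Zmat3 was at 3.33, 2.99 and 3.25 FPKM with busulfan plus AOS, against 2.27, 2.86 and 2.45 FPKM with busulfan (0.23 ± 0.13). Of 23 tested antioxidant genes, 8 were higher and 15 lower, with a median of -0.09. Hmox1, the inducible heme oxygenase, was at 29.7, 24.3 and 19.6 FPKM with busulfan plus AOS, against 8.80, 14.5 and 11.4 FPKM with busulfan (0.98 ± 0.27, 1.98-fold, no overlap), and Gclc, the catalytic subunit of glutathione synthesis, at 9.36, 9.98 and 8.59 FPKM with busulfan plus AOS, against 5.76, 7.56 and 6.20 FPKM with busulfan (0.41 ± 0.14).

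Of 12 cardiac stress genes 8 were higher, with a median of 0.43, and of 25 matrix remodelling genes 22 were higher, with a median of 0.42. With the atrial covariate the medians were 0.26 and -0.13, with 9 of 12 and 7 of 25 higher. Without replicate 1 of busulfan plus AOS they were 0.19 in both lists, and without busulfan replicate 1 they were 0.40 and 0.19. The natriuretic peptide Nppa, made by the atria, was at 241, 47.2 and 147 FPKM with busulfan plus AOS, against 4.85, 30.3 and 6.16 FPKM with busulfan. The order of libraries was that of the atrial markers, of which Nppa is one. The cardiac stress list holds Nppa and Mybphl, which are also in the atrial covariate, so its median with that covariate is not independent of its own members. Nppb, the peptide that stressed ventricles make, was at 19.1, 3.72 and 11.2 FPKM with busulfan plus AOS, against 4.01, 2.17 and 2.28 FPKM with busulfan, which overlap. The fibrillar collagen Col1a2 overlapped too, at 156, 80.4 and 115 FPKM with busulfan plus AOS, against 44.5, 84.6 and 59.8 FPKM with busulfan (0.79 ± 0.37 SE). Of 14 collagens 11 were higher, with a median of 0.33, and of 0.02 with the atrial covariate; 0 had an unadjusted p under 0.05. P4ha1, which hydroxylates collagen in the ER, had a log2 fold change of 0.62 ± 0.20 SE without overlap. Wt1, a transcription factor of the epicardium, was at 9.20, 6.95 and 5.79 FPKM with busulfan plus AOS, against 3.10, 4.64 and 4.12 FPKM with busulfan (0.78 ± 0.19), and the 8 mesothelial markers had a summed level of 70.0 to 219 FPKM with busulfan plus AOS and of 11.2 to 90.1 FPKM with busulfan.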

How the data were processed

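RNA of 12 mouse heart libraries in 4 groups of 3 was sequenced, and a table of 19246 genes was deposited. It holds estimated counts per gene and library, deposited by the authors without normalization, and expression values deposited by the authors under a header that names no unit. These values were taken as FPKM computed by the authors, since they and the counts implied gene lengths that varied between libraries by a median of 0.456% over 1097 genes above 50 in every library. The submitters' processing notes name mm10. An aligner, a counter or an annotation is not given in the sources used here. Groups came from the sample titles, whose codes HBA10 and HBA0 were read as the BA10 and B0 of the series text.

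Estimated counts were rounded, which changed a total by at most 18.1, filtered with filterByExpr (14687 kept, 4559 left out), scaled by TMM and fitted for all 12 libraries in edgeR 4.0.16 (R 4.3.3, quasi-likelihood test, Benjamini-Hochberg over all tested genes, threshold 0.05). The common coefficient of variation was 29.1%. Alternatives used DESeq2 1.42.0 and limma 3.58.1, other scalings, filters, pseudocounts of 0.1 and 1 on log2 FPKM, the replicate number as a block, the mean log2 CPM of atrial or adipocyte markers as a covariate, and each library left out. The test was checked on simulated data. Overlap between groups was judged on CPM. Totals of 9929772 to 13620815 counts set the precision, and the labels name no batch. Coordinates and promoters are from RefSeq by gene identifier or symbol.

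Named genes were, among genes without overlap and with at least 5 CPM in a group, the 10 higher and 10 lower with the smallest p and the 6 with the largest change each way, up to 6 members of each of 46 lists by smallest p, any cell type marker and the 5 with the smallest interaction p; predicted genes were left out. The members and lists, the covariates and the motifs were chosen with earlier results of these data known.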

Additional observations from a re-analysis of the deposited data

How the results depend on the processing

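The count of genes called between busulfan plus AOS and busulfan was 0 in edgeR and moved to 53 in DESeq2 (45 higher, 8 lower; 7 genes had no adjusted p) and to 1 with the adipocyte covariate, a lower unnamed gene model. With each library left out it ranged from 0 to 1, the same model without busulfan replicate 1; at an unadjusted p under 0.05 it ranged from 644 to 2676. For the difference between the AOS effects the count of 0 moved to 5 in DESeq2 and to 1 with the atrial covariate (Tmem45b, lower) and stayed at 0 with each library left out. The cause of these moves was not tested. RLE factors, library totals, no filter, the compared groups alone (main comparison only), limma-voom and limma on log2 FPKM gave 0 in either comparison. Of 97 named genes under 23 alternatives, 30 passed in DESeq2 only, and 2 reversed: with the atrial covariate Myl7 had a log2 fold change of -0.68 and Adipoq of -1.50. The covariate itself holds Myl7; for Adipoq the cause was not tested. Library totals in place of TMM put the median of all genes at 0.11 and that of the ER chaperones at 0.52. Same-numbered libraries had correlated deviations of -0.333, -0.160 and -0.126, so the numbers were not taken as pairs; the replicate block gave 0 calls in both comparisons and 1645 genes at an unadjusted p under 0.05. Depth was similar, so it limits genes below about 1 FPKM most, and 4559 genes were too low to test.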

Other observations

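Heat shock proteins, which refold protein outside the ER in the cytosol and, for Hspd1 and Hspe1, in mitochondria, had a median log2 fold change of 0.24 with AOS after busulfan (10 of 16 higher) and of -0.46 with AOS alone against controls (1 of 16 higher). Hspb1, a small heat shock protein of muscle, was at 1115, 523 and 545 FPKM with busulfan plus AOS, against 385, 332 and 531 FPKM with busulfan, and at 317, 274 and 285 FPKM with AOS, against 521, 428 and 410 FPKM in controls. The difference between the AOS effects was 1.44 ± 0.41 SE on the log2 scale (edgeR unadjusted p = 0.00491, adjusted p = 1.000), and 1 of 16 members reached an unadjusted p under 0.05, against 1.44% of all genes. Without busulfan replicate 3 the count was 8, in a fit with 316 of all genes at that p in either direction. The stress-inducible Hspa1b, whose near-identical copy Hspa1a makes its count uncertain, was at 72.5, 26.1 and 15.9 FPKM with busulfan plus AOS, against 3.05, 10.6 and 28.6 FPKM with busulfan, which overlap.

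Immediate early genes other than Ier2 were named after their values were seen. Junb was at 50.7, 34.4 and 21.4 FPKM with busulfan plus AOS, against 10.6, 17.6 and 12.4 FPKM with busulfan (log2 fold change 1.29 ± 0.33 SE; DESeq2 adjusted p = 0.0435). Egr2 was at 17.2, 7.0 and 1.18 FPKM with busulfan plus AOS, against 0.33, 1.62 and 0.72 FPKM with busulfan, which overlap. The smallest p for the difference between the AOS effects was that of Ripor2, at 0.87, 0.83 and 0.70 FPKM with busulfan plus AOS, against 1.54, 1.28 and 1.73 FPKM with busulfan, and at 1.80, 2.73 and 3.12 FPKM with AOS, against 1.41, 0.90 and 0.97 FPKM in controls (-2.17 on the log2 scale; edgeR unadjusted p = 0.000131). Jchain, the joining chain of secreted antibodies, was at 9.06, 5.20 and 1.92 FPKM with busulfan plus AOS, against 0.51, 0.53 and 0.43 FPKM with busulfan (3.33 ± 0.86; DESeq2 adjusted p = 0.0226), highest in replicate 1 of busulfan plus AOS, as the airway genes were.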
